A study of Mus musculus with 12 samples.

Results

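Mouse muscle takes up and burns fatty acids through a chain of proteins, and 10 genes of that chain were examined here in quadriceps: Cd36, Lpl, Fabp3, Cpt1b, Cpt2, Acadm, Acadvl, Hadha, Hadhb and Pdk4. They were chosen by name, as the rows carrying these gene names in the 2 deposited expression tables once these were joined on gene identifier. All 10 were found among the 15344 genes of the tables, and all 10 passed the filter on low values in every comparison. The readout was bulk RNA-Seq, so a level is that of a whole piece of muscle, and fewer cells of a type cannot be told apart from less RNA per cell.

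The mice modelled Pompe disease, in which glycogen accumulates for want of acid alpha-glucosidase (Gaa), a lysosomal enzyme, in muscle. All 12 mice had a C57BL/6 background and were 6 months old at harvest, with 4 animals in each of 3 groups. WT mice were untreated and carried an intact Gaa gene by their label, KO mice were GAA knock-out animals given PBS, and AAV mice were GAA knock-out animals given 2e12 vg/kg of AAV2/8-LSPhGAApA through the tail vein. According to the methods the knock-out animals were male and injected at 2 months of age, and the vector drives human GAA in liver only, so that muscle receives the enzyme from blood. KO against WT compared animals labelled as without and with an intact Gaa gene, and AAV against KO those labelled as treated and untreated.

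The targeted gene did not follow the labels in every library. Gaa (ENSMUSG00000025579) lies on the + strand of chromosome 11 from 119267887 to 119285454. The libraries labelled WT 1 to 4 held 342.9, 14640.2, 323.8 and 460.3 normalized counts of it. In those labelled KO it stood at 12151.0, 13074.5, 11936.2 and 12895.0, and in those labelled AAV at 946.8, 587.0, 499.6 and 9854.3. Gaa was therefore high in the 4 libraries labelled KO and in AAV 4, although these animals are labelled knock-out, and low in 3 of 4 labelled WT. It was low, as a knock-out label has it, in AAV 1, AAV 2 and AAV 3. Its log2 fold change was 3.75 for KO against WT (adjusted p = 0.025, limma) and -3.28 for AAV against KO (adjusted p = 0.016, limma). The first call was lost in 8 of 17 alternatives and the second in 3. Enzyme activity and glycogen, which the study also measured in muscle, are not analysed here. The directions below are those of the labels, and the libraries labelled WT 2 and AAV 4 stood apart from their groups by this gene. The library labelled WT 3 stood apart over all genes, with a mean correlation of -0.16 to the other WT libraries against 0.40 to 0.41 for those. In the AAV group, AAV 3 and AAV 4 had mean correlations of 0.011 and 0.047 to the other AAV libraries, against 0.26 and 0.32 for AAV 2 and AAV 1. These outlying libraries had higher means with another labelled group. WT 3 had 0.087 with KO and was closest to AAV 3 (0.28). AAV 3 had 0.12 with KO, and AAV 4 had 0.22 with WT and was closest to WT 4 (0.60). Between 22122233 and 47379737 reads were counted per library. The 10 fast muscle fibre markers, among them Acta1 and Ckm, were present in every library, with summed normalized counts that overlapped between the 3 groups. Among them, the fast myosin Myh4 was higher in KO than in WT (log2 fold change 0.73, adjusted p = 0.0487, limma), and Myh1 was lower (-1.36, adjusted p = 0.0182, limma). For AAV against KO, Myh1 was higher (1.09, adjusted p = 0.0218, limma) and Myh4 had -0.77 (adjusted p = 0.132, limma).

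Lipoprotein lipase on the capillary wall frees fatty acids, CD36 takes them up and fatty acid binding protein carries them to the mitochondrion. There the carnitine palmitoyltransferases move them across both membranes as carnitine esters. The acyl-CoA dehydrogenases and the trifunctional protein then shorten them in cycles that release acetyl-CoA. Pyruvate dehydrogenase kinase 4 sits beside this chain: it switches off pyruvate dehydrogenase and so spares glucose when fat is burned. Many of these genes are known targets of PPAR and ERR nuclear receptors, whose shared half-site is AGGTCA.

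Promoter windows of 250 bases before the start of transcription were read from RefSeq (GRCm38.p6) for 8 of the 10 genes. Shown are Pdk4, the 1 member that differed between groups below, and Cd36 and Acadm, whose levels correlated most over the libraries. Acadvl is shown too, as is Hadhb, whose window shares 228 bases with that of Hadha on the opposite strand. The positions are Pdk4 chr6:5496279-5496528 (- strand), Cd36 chr5:17835897-17836146 (- strand), Acadm chr3:153944644-153944893 (- strand), Acadvl chr11:70015429-70015678 (- strand) and Hadhb chr5:30155003-30155252 (+ strand). Each reads 5′ to 3′ in the direction of its gene, and capitals mark the half-site (AGGTCA), the GC box (GGGCGG) and the CCAAT box (CCAAT) on either strand.
Pdk4: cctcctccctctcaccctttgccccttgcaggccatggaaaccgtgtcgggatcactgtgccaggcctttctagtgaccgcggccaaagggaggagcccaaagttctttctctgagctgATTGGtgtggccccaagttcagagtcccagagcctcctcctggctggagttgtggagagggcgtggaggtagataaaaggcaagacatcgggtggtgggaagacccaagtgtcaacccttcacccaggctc
Cd36: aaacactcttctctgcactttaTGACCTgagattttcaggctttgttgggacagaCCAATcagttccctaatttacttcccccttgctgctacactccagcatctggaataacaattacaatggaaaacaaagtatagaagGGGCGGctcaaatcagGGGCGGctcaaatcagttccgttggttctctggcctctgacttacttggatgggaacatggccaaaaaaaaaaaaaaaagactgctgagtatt
Acadm: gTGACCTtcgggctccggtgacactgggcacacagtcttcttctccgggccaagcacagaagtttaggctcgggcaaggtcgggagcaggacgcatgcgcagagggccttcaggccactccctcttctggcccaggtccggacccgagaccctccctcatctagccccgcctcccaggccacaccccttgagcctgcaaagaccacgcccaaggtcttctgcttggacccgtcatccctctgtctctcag
Acadvl: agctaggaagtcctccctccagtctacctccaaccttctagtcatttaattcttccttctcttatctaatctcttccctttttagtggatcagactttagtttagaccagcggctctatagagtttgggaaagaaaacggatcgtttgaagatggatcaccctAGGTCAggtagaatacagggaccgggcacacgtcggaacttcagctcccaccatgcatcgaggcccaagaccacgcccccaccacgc
Hadhb: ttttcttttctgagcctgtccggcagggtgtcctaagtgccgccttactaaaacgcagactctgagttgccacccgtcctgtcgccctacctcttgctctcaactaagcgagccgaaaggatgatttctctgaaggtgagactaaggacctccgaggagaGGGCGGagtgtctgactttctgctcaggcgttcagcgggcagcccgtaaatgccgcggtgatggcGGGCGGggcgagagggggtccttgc
The half-site AGGTCA was found on either strand in the windows of Cd36, Acadm and Acadvl, 228, 249 and 87 bases before the start. Of all 32851 windows in the table, 14.0% held it. The DR1 element, a direct repeat of AGGTCA with any 1 base between the copies, present in 0.0335% of all windows, and the extended half-site TCAAGGTCA, present in 0.387%, were in 0 of the 8 windows. GGGCGG was in those of Cd36, Cpt2, Hadha and Hadhb and in 32.7% of all windows. CCAAT was in those of Cd36 and Pdk4 and in 33.8% of all windows, and TATAAA was in 0 of the 8 and in 12.4% of all. The extended half-site contains the half-site. A match is a description of these letters only.

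Levels per kilobase of exon placed the 10 genes over a wide range. Averaged over the 12 libraries, Fabp3 was highest at 4973 normalized counts per kb, followed by Pdk4 at 4222, Acadvl at 3235, Lpl at 1876, Acadm at 1664, Hadha at 1102, Cd36 at 899.7 and Cpt2 at 631.4. The ranges over libraries of neighbours in this order overlapped down to Cpt2. Hadhb at 162.3 per kb lay below Cpt2 in every library, since its highest value of 213.3 was under the lowest of Cpt2, 470.9. Cpt1b, at 22.5 to 49.6 per kb, lay below all the others. Its level may be affected by Gm44502, a gene that in GENCODE M21 runs over 100% of Cpt1b on the same strand and is not in the tables. The authors name another annotation version for their counts, and whether it held Gm44502 is not known here. Exonic lengths were those of all annotated exons together, so genes with long or rarely used exons come out low on this scale.

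**Figure D1:**
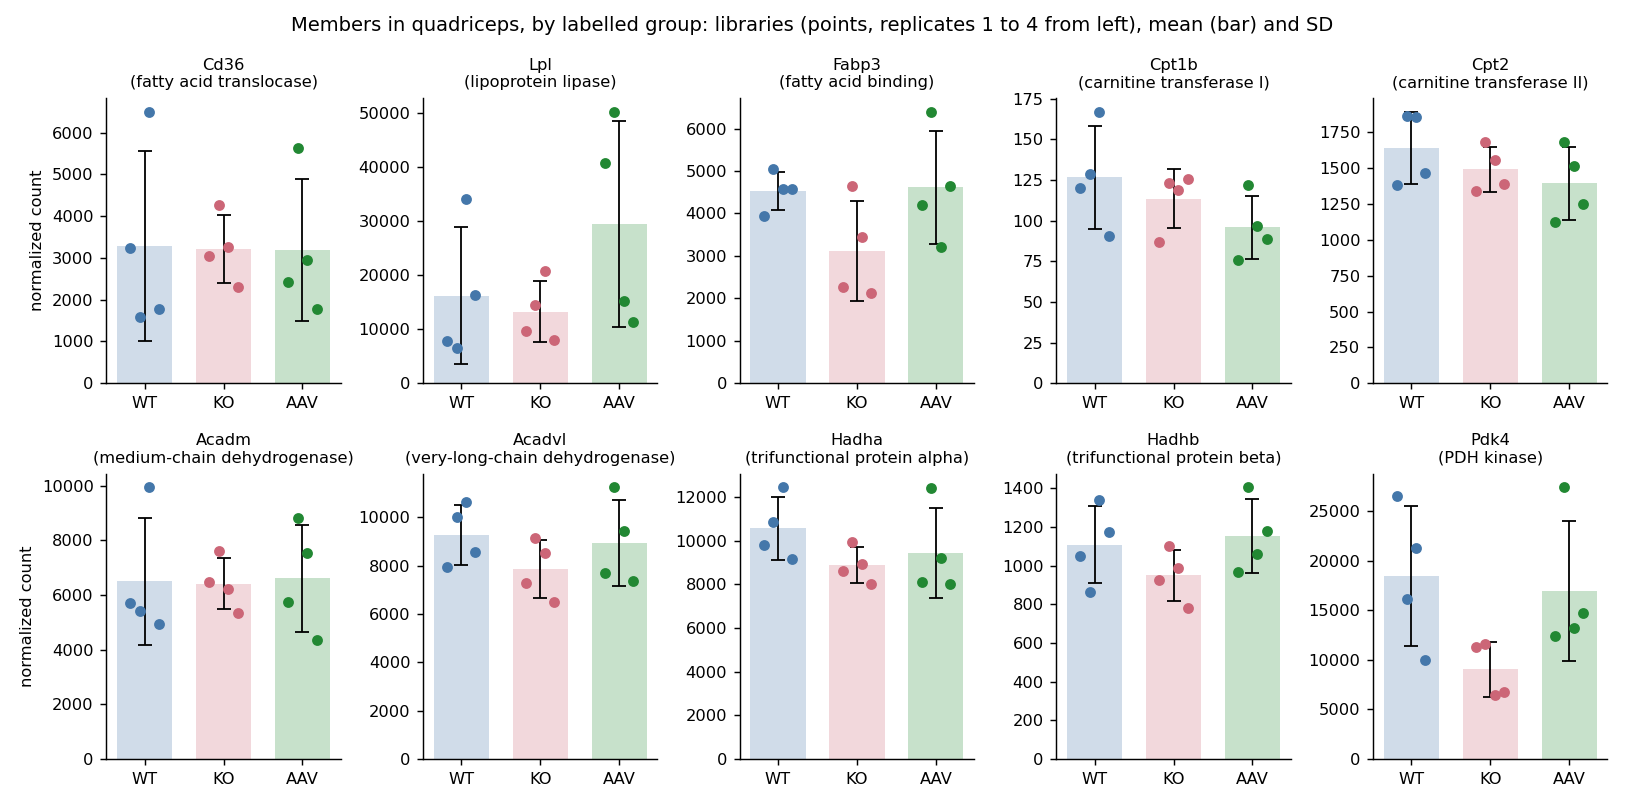
Normalized counts of the 10 genes in each library (points, replicates 1 to 4 from left to right), by labelled group, with group means as bars and SD as whiskers, on axes that start at 0. Pdk4 is the gene whose AAV points, from 12407 to 27432, all lie above its KO points, from 6484 to 11652.

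Between the libraries labelled KO and WT, most of the chain showed small differences, and 1 member passed the test. Pdk4 was lower in the KO libraries, with a log2 fold change of -0.997, a 2.00-fold lower level (limma on log2(normalized count + 1), Benjamini-Hochberg adjusted p = 0.0385, n = 4 per group). That made 1 of 10 members called at an adjusted p under 0.05, where 27.6% of the 14859 genes tested were called (12.3% higher and 15.3% lower). In 0 of 10 members did the groups not overlap, against 28.3% of all genes. The log2 fold change was negative in 8 of 10 members, with a median of -0.18 against 0.02 over all genes. The members' median absolute log2 fold change was 0.20, against 0.42 for all genes.

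Between the libraries labelled AAV and KO, Pdk4 was again the 1 member called, now higher by 0.88 on the log2 scale (1.84-fold, limma, Benjamini-Hochberg adjusted p = 0.0454, n = 4 per group). Of the 14894 genes tested, 26.3% were called (12.8% higher and 13.4% lower). Pdk4 was also the 1 member whose groups did not overlap, against 30.6% of all genes. The log2 fold change was positive in 7 of 10 members, with a median of 0.12 against 0.04 over all genes. Both comparisons used the same 4 KO libraries, so a low or high KO value enters both with opposite sign.

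**Figure D2:**
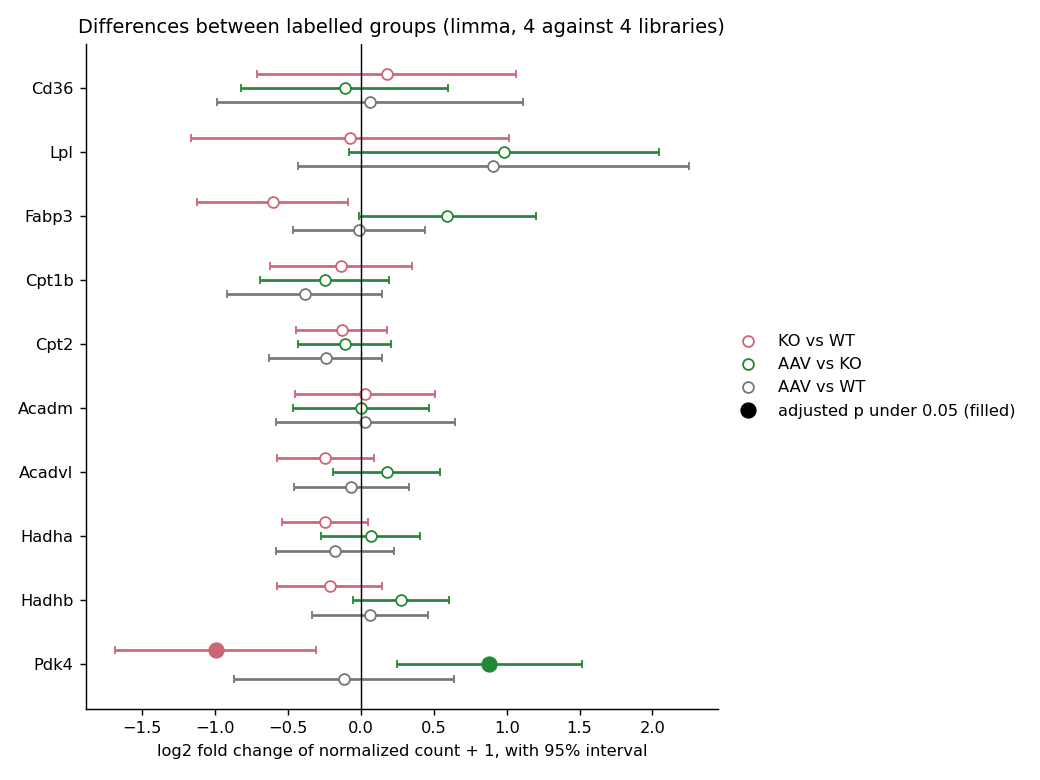
Log2 fold change of normalized count + 1 with its 95% interval for each gene in the 3 comparisons of labelled groups (limma, 4 against 4 libraries), with filled points for an adjusted p under 0.05. The 2 filled points are Pdk4, at -0.997 for KO against WT and 0.88 for AAV against KO, and the intervals of Lpl and Cd36 are the widest.

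Pdk4 (ENSMUSG00000019577, chromosome 6, 5483351 to 5496309, - strand), the kinase that inactivates pyruvate dehydrogenase, stood at 26513, 16189, 21276 and 9986 normalized counts in WT libraries 1 to 4. In those labelled KO the values were 11262, 11652, 6484 and 6753, and in those labelled AAV 12407, 27432, 13188 and 14719. WT 4 lay among the KO libraries, while every AAV library lay above every KO library, and AAV 2 was far above the other 3. Group means were 18491 ± 7065 for WT, 9038 ± 2801 for KO and 16937 ± 7063 for AAV (SD, n = 4). The 95% interval of the log2 fold change ran from -1.69 to -0.31 for KO against WT and from 0.25 to 1.51 for AAV against KO. Against Pdk2, the other abundant kinase of the complex, Pdk4 stood at 38.5 to 70.1 normalized counts per 100 of Pdk2 in KO, 68.4 to 173 in WT and 59.3 to 141 in AAV.

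Both calls of Pdk4 rested on single libraries. For KO against WT, the adjusted p (limma, Benjamini-Hochberg) was 0.0963 without WT 1, 0.0749 without WT 2, 0.0533 without KO 1, 0.0996 without KO 3 and 0.1 without KO 4, at log2 fold changes of -1.26 to -0.79 over all libraries left out in turn. For AAV against KO it was 0.0598, 0.0535, 0.11 and 0.119 without KO 1 to 4, 0.0603 without AAV 1, 0.0776 without AAV 2 and 0.0615 without AAV 4, at log2 fold changes of 0.62 to 1.02. Fibre markers also differed between these groups. Of the genes listed as slow fibre markers, 10 of 10 (among them Myh7, Tnni1 and Myl2) were lower in KO than in WT, and 9 of 10 were higher in AAV than in KO. Their summed normalized count was 13085 to 56076 in WT, 3630 to 13952 in KO and 20330 to 102373 in AAV, and 0 of the 10 were at 0 in any library. Myh2, the myosin of fast oxidative (IIa) fibres, made up 56.3% to 87.4% of that sum in each library. Without it the sum was 5724 to 11670 in WT, 1517 to 2348 in KO and 5831 to 29874 in AAV. The fast myosin Myh1 was also lower in KO than in WT and higher in AAV than in KO, as given above, while Myh4 was higher in KO than in WT. Blood cell markers were higher in AAV than in KO for 2 of 3 (Hba-a1 and Hba-a2), with sums of 363.4 to 1028 in AAV, 35.9 to 387.3 in KO and 326.7 to 406.3 in WT. Of 7 mitochondrially encoded genes, 3 were lower in AAV than in KO (mt-Nd5, mt-Co1 and mt-Nd2). Over the 12 libraries, Pearson's r of Pdk4 on the log2 scale was 0.62 with the slow fibre sum, 0.66 with that sum without Myh2, and 0.60 with the blood cell sum. With group means taken out, it was 0.21, 0.19 and 0.34, and 0.62 with the endothelial sum. The part of these markers in the result was not tested.

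Fabp3 (ENSMUSG00000028773, chromosome 4, 130308595 to 130315463, + strand), the muscle and heart form of fatty acid binding protein, had 3934, 5042, 4586 and 4572 normalized counts in the libraries labelled WT 1 to 4. KO libraries gave 2275, 4649.5, 3457 and 2123, and AAV libraries 4206, 6403, 3212 and 4652. KO 1, KO 3 and KO 4 lay below all WT libraries, whereas KO 2 lay among them. The log2 fold change was -0.61 for KO against WT (95% interval -1.12 to -0.09, adjusted p = 0.0763, limma) and 0.59 for AAV against KO (-0.01 to 1.20, adjusted p = 0.128, limma), so that neither passed. Without KO 2, the first became -0.82 and passed, at an adjusted p of 0.024 (limma). The pseudogene Fabp3-ps1 matches Fabp3 at 99.3% over 402 bases, but had a mean of only 11.6 normalized counts.

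Lpl (ENSMUSG00000015568, chromosome 8, 68880491 to 68907448, + strand), the lipase that releases fatty acids from lipoproteins, varied most among animals. WT libraries gave 7899.6, 6616, 34072 and 16279 normalized counts, KO libraries 9708, 14459.9, 20798 and 8076, and AAV libraries 40855, 50366, 15332 and 11414. AAV 1 and AAV 2 lay above all other libraries, while AAV 3 and AAV 4 lay within the KO range. The log2 fold change of AAV against KO was 0.98, but its 95% interval ran from -0.08 to 2.05 (adjusted p = 0.147, limma). Without AAV 4 it was 1.35 and passed, at an adjusted p of 0.0495 (limma). For KO against WT it was -0.07 (-1.16 to 1.02, adjusted p = 0.919, limma).

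Cd36 (ENSMUSG00000002944, chromosome 5, 17781690 to 17888801, - strand), the membrane receptor for long-chain fatty acids, showed means of 3279 ± 2276 in WT, 3217 ± 809.5 in KO and 3195 ± 1699 in AAV (SD, n = 4). Single libraries ranged from 1589 (WT 2) to 6508 (WT 3) in WT, from 2296 to 4260.4 in KO and from 1768 to 5639 (AAV 2) in AAV. The KO range lay inside that of WT. The difference on the log2 scale was 0.18 for KO against WT (95% interval -0.71 to 1.07, adjusted p = 0.758, limma) and -0.11 for AAV against KO (-0.82 to 0.59, adjusted p = 0.807, limma). Over libraries left out in turn, that for KO against WT ran from -0.091 to 0.59, with a lowest adjusted p of 0.0832 (limma).

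Cd36 and Lpl are also expressed by other cells of muscle, and markers of those cells differed between groups. Endothelial markers were higher in KO than in WT for 4 of 8 genes (Vwf, Cdh5, Tie1 and Pecam1), with sums of 5744 to 7156 in KO and 2461 to 6113 in WT. Macrophage markers were lower in KO for 5 of 7, with sums of 735.6 to 1364 in KO and 1374 to 4625 in WT. For AAV against KO, 0 of 7 passed by limma, with 3 at an unadjusted p under 0.05, 3 called by DESeq2 and 2 by edgeR. All 7 had positive log2 fold changes, with a median of 0.80 and sums of 814.9 to 4142 in AAV. Adipocyte markers passed in 0 of 8 by limma for KO against WT, with 1 at an unadjusted p under 0.05 and 1 called by each of DESeq2 and edgeR, and in 0 of 8 by all 3 tools for AAV against KO. For KO against WT all 8 had positive log2 fold changes, with a median of 1.07. For AAV against KO 4 of 8 were positive, with a median of 0.06. Adipocyte sums were 3102 to 8317 in WT, 4463 to 17009 in KO and 6705 to 10166 in AAV. Fibroblast markers passed in 0 of 6 by limma in both comparisons, with 1 at an unadjusted p under 0.05 and 1 called by each of DESeq2 and edgeR for KO against WT. The highest adipocyte sum was that of KO 3, which also had the highest Lpl of the KO libraries. The part of these cells in the levels of Cd36 and Lpl was not tested.

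Both carnitine palmitoyltransferases showed small differences. Cpt2 (ENSMUSG00000028607, chromosome 4, 107903981 to 107923610, - strand), the inner-membrane enzyme, gave 1385, 1862, 1856 and 1468 normalized counts in WT, 1342, 1682, 1557 and 1389.9 in KO, and 1126, 1683, 1515 and 1248 in AAV. The 3 groups overlapped. Its log2 fold change was -0.13 for KO against WT (95% interval -0.44 to 0.18, adjusted p = 0.50, limma) and -0.11 for AAV against KO (-0.43 to 0.21, adjusted p = 0.579, limma). These are among the narrowest intervals of the 10 genes.

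Cpt1b (ENSMUSG00000078937, chromosome 15, 89416405 to 89425863, - strand) encodes the muscle form of the outer-membrane enzyme that malonyl-CoA inhibits, the usual control point of the pathway. It gave 120.3, 128.6, 167.2 and 90.7 normalized counts in WT, 87.0, 123.1, 118.6 and 125.6 in KO, and 75.8, 121.8, 96.8 and 89.0 in AAV. Its log2 fold change was -0.14 for KO against WT (95% interval -0.62 to 0.35, adjusted p = 0.653, limma) and -0.25 for AAV against KO (-0.69 to 0.19, adjusted p = 0.363, limma). The liver form Cpt1a stood at 101 to 299 normalized counts per 100 of Cpt1b over the 12 libraries, a ratio that the overlap of Cpt1b with Gm44502 may affect.

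Of the acyl-CoA dehydrogenases, Acadvl (ENSMUSG00000018574, chromosome 11, 70010183 to 70015411, - strand) acts on very long chains. It had 7955, 10018, 10609 and 8543 normalized counts in WT, 7260.1, 9141, 8526 and 6493 in KO, and 7686, 11239.8, 9426 and 7361 in AAV. Every KO library lay below the highest 2 WT libraries, but the groups overlapped. The log2 fold change was -0.24 for KO against WT (95% interval -0.57 to 0.09, adjusted p = 0.236, limma) and 0.18 for AAV against KO (-0.19 to 0.54, adjusted p = 0.438, limma). Dvl2 overlaps 40.5% of Acadvl on the opposite strand, at a mean of 190.7 normalized counts, and whether reads were counted by strand is not given in the sources used here.

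Acadm (ENSMUSG00000062908, chromosome 3, 153922357 to 153944632, - strand), the medium-chain enzyme, had group means of 6502 ± 2318 in WT, 6420.1 ± 935.2 in KO and 6608 ± 1971 in AAV (SD, n = 4). WT 3 at 9948 lay far above the other WT libraries, which gave 5704, 5408 and 4949. The KO libraries gave 6469.7, 7625, 6231 and 5355, and the AAV libraries 5742, 8822, 7528 and 4339. On the log2 scale the difference was 0.03 for KO against WT (95% interval -0.45 to 0.51, adjusted p = 0.929, limma) and 0.00 for AAV against KO (-0.47 to 0.47, adjusted p = 0.995, limma).

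The trifunctional protein is built from Hadha, the alpha subunit with hydratase and dehydrogenase activity, and Hadhb, the beta subunit with thiolase activity. The genes lie head to head on chromosome 5, with 85 bases between them: Hadha (ENSMUSG00000025745) at 30118304 to 30155162 on the - strand and Hadhb (ENSMUSG00000059447) at 30155248 to 30184593 on the + strand. Hadha gave 9783.5, 10860.0, 12448 and 9138 normalized counts in WT, 8609, 9960.0, 8938 and 8013 in KO, and 8092, 12399, 9194 and 8025 in AAV. WT values ran higher than KO values, with an overlap from 9138 to 9960.0. Its log2 fold change was -0.24 for KO against WT (95% interval -0.54 to 0.05, adjusted p = 0.183, limma) and 0.07 for AAV against KO (-0.27 to 0.41, adjusted p = 0.759, limma).

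Hadhb gave 1051, 866.4, 1339 and 1177 normalized counts in WT, 928.5, 1101, 987.6 and 781.6 in KO, and 966.1, 1406, 1058 and 1182 in AAV. Its log2 fold change was -0.22 for KO against WT (95% interval -0.58 to 0.15, adjusted p = 0.334, limma) and 0.28 for AAV against KO (-0.05 to 0.60, adjusted p = 0.183, limma). Although the 2 subunits assemble together, Hadhb stood at 7.98 to 14.7 normalized counts per 100 of Hadha over the 12 libraries. The lowest ratio was that of WT 2 and the highest that of AAV 4, the libraries that stood apart by Gaa.

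Between the libraries labelled AAV and WT, 0 of 10 members were called by limma, and 0 of 10 had an unadjusted p under 0.05. DESeq2 and edgeR on the recovered reads also called 0 each. Of the 14939 genes tested, 1.29% were called by limma. That is 193 genes, where DESeq2 called 951 and libraries left out in turn gave 18 to 442. The largest differences were those of Lpl, 0.91 on the log2 scale (95% interval -0.43 to 2.25), and Cpt1b, -0.39 (-0.92 to 0.15). Pdk4 differed by -0.12 (-0.87 to 0.64), an interval that still holds a difference close to that between KO and the other groups. Leaving out the libraries labelled WT 2 and AAV 4 together also gave 0 calls among the members.

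Some libraries were high or low in many members at once. All 10 were above their own mean in the libraries labelled WT 3 and AAV 2, which between them held the highest value of 9 members. WT 3 was highest for Cd36, Cpt1b, Acadm and Hadha, and AAV 2 for Lpl, Fabp3, Acadvl, Hadhb and Pdk4. The mean over members, each in SD from its own mean, was 1.40 in WT 3 and 1.39 in AAV 2, and between -1.001 and 0.39 in the other 10 libraries. KO 4 was the lowest, with the lowest values of Fabp3, Acadvl, Hadha and Hadhb.

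Several marker sums correlated with members over libraries, among them that of the 10 genes listed as slow fibre markers, most of which is Myh2. AAV 2 had the highest sum (102373), WT 3 the next highest (56076) and KO 4 the lowest (3630). Without Myh2, AAV 2 was still the highest (29874) and KO 4 the lowest (1517), but WT 3 (7044) lay below WT 2, WT 4, AAV 1 and AAV 3. WT 3 also had the lowest Tnni1, Tnnt1 and Casq2 of the WT libraries. Over the 12 libraries, Pearson's r between a member and the sum with Myh2, both on the log2 scale, was highest for Fabp3 (0.82), Acadvl (0.75), Lpl (0.69) and Hadhb (0.69). It was lowest for Cpt1b (0.00) and Cd36 (0.24), with a median of 0.61 over the 10 genes. After each group's mean was taken out, it was 0.81 for Lpl, 0.79 for Acadvl, 0.71 for Hadha and 0.70 for Fabp3. Without Myh2 in the sum, r over the 12 libraries had a median of 0.49 and ran from -0.12 (Cpt1b) to 0.74 (Fabp3). After group means were taken out, it was then 0.55 for Lpl, 0.60 for Acadvl, 0.57 for Hadha and 0.55 for Fabp3. The sum without Myh2 was added after seeing the data. With the endothelial sum, r after group means were taken out was 0.96 for Cd36, 0.93 for Acadm and 0.73 for Hadha. With the sum of the mitochondrially encoded genes it was 0.87 for Cd36, 0.86 for Acadm and 0.84 for Lpl, and with the macrophage sum it was -0.76 for Acadm. These are descriptions over libraries that share group labels and a scaling, and what lies behind them was not tested.

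**Figure D3:**
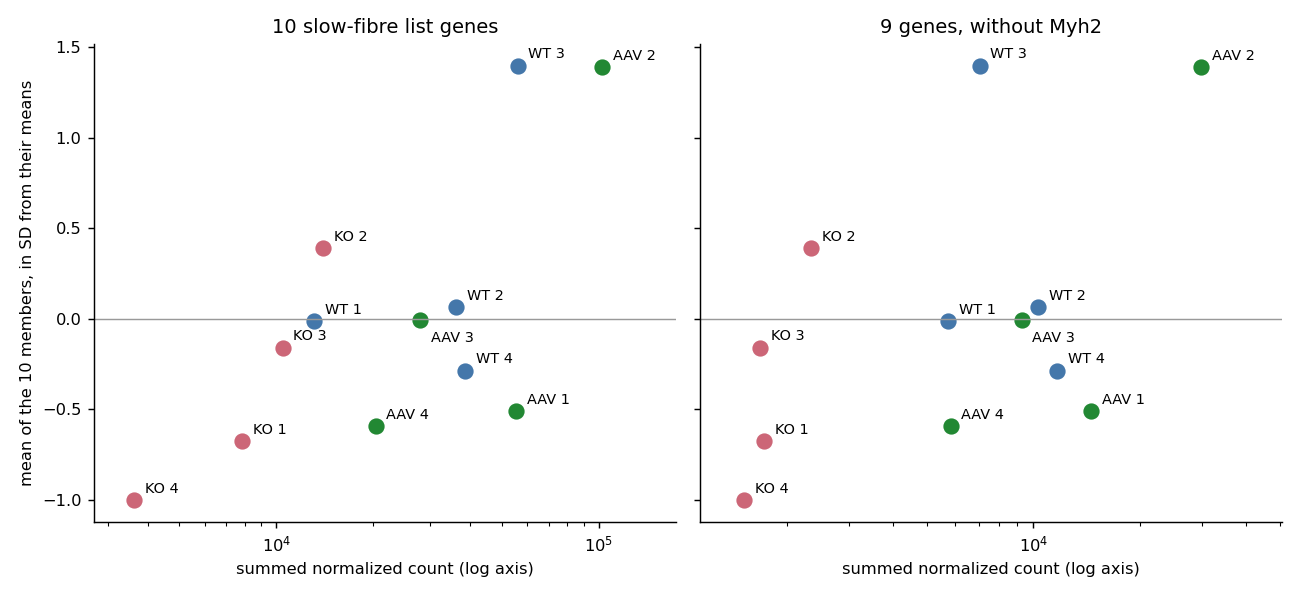
Mean level of the 10 genes in each library, in SD from their means over 12 libraries, against the summed normalized count of the slow fibre list on a log axis, with all 10 genes on the left and without Myh2 on the right, coloured by labelled group. WT 3 and AAV 2 stand alone at the top, at 1.40 and 1.39 SD, and WT 3 moves from the second highest sum (56076) to the middle of the libraries (7044) without Myh2.

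Across animals some members kept close company. Acadm and Cd36 had the highest correlation over the 12 libraries (Pearson's r of 0.92 on log2 values), followed by Hadha with Acadvl (0.91) and Hadha with Cpt2 (0.84). Hadha correlated best with the mean of the other 9 (0.93), and Lpl least (0.49). The lowest pair was Cpt1b with Lpl, at -0.0048. Hadha and Hadhb, which share a promoter region and a complex, had 0.60.

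**Figure D4:**
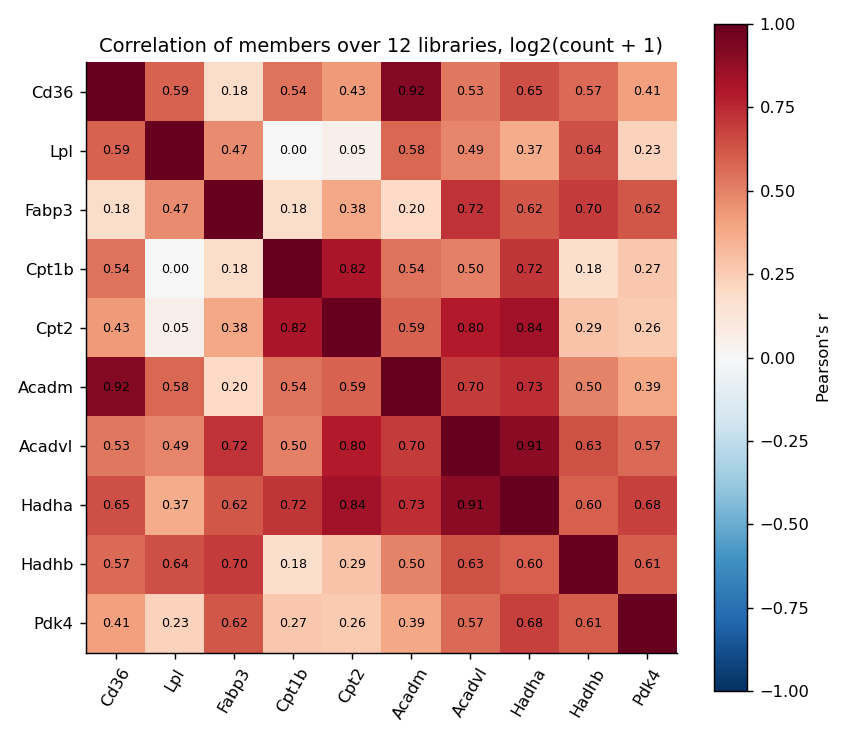
Pearson's r between each pair of the 10 genes over 12 libraries, on log2(normalized count + 1), from -1 (blue) to 1 (red). Acadm with Cd36 (0.92) and Hadha with Acadvl (0.91) are the highest, and Lpl has values near 0 with Cpt1b and Cpt2.

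Outside the pathway lists, the genes whose pattern over the 12 libraries was most like the mean of the members were named among 9574 genes with a mean of at least 100 normalized counts. They were Ptpn3 (Pearson's r 0.93), Ech1 (0.93), P2ry1 (0.92), Nudt7 (0.92) and Gm11716 (0.89). Ech1 encodes an auxiliary enzyme for unsaturated fatty acids, and Nudt7 a peroxisomal hydrolase of coenzyme A.

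The other genes of fatty acid metabolism, 118 in lists by step, were called about as often as genes at large. For KO against WT, 32 of the 117 tested were called (27.4%, where 27.6% of all genes were), 18 higher and 14 lower (12.3% and 15.3% of all genes), with a median log2 fold change of 0.05. The number rested on single libraries. It was 59 without WT 3, of which 38 were higher. It was 22 without WT 1, 21 without WT 2 and 18 without WT 4, of which 10, 10 and 7 were higher. Without any 1 KO library it was 17 to 21, of which 8 to 10 were higher. The count over all genes moved alike, to 7163 without WT 3 and to 2353 to 2641 without WT 2, WT 4 or any 1 KO library.

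Next to the members in the mitochondrion, 4 genes were lower in KO. Of the 6 other acyl-CoA dehydrogenases 1 was called. This was Acadl, the long-chain enzyme, which had 7749, 8005, 8762 and 7352 normalized counts in WT and 4612, 6108, 5408 and 4018 in KO, with no overlap (log2 fold change -0.68, adjusted p = 0.00961, limma). Of the 7 other genes of the later steps, 3 were lower and 0 higher. These were Acaa2, the thiolase for medium chains (-0.84, adjusted p = 0.0112, limma), Hadh, the short-chain hydroxyacyl-CoA dehydrogenase (-0.61, adjusted p = 0.0112, limma), and Hsd17b10 (-0.60, adjusted p = 0.00667, limma). All 4 calls were kept in each of the 17 alternatives. In the carnitine shuttle 0 of 4 passed and in electron transfer 0 of 3, by limma, DESeq2 and edgeR alike and also at an unadjusted p under 0.05. Etfdh passed in 1 of the 8 fits with a library left out, at an adjusted p of 0.0163 (limma). The 4 genes called had log2 fold changes of -0.84 to -0.60, and Acadm, Acadvl, Hadha and Hadhb had -0.24 to 0.03. Whether these 2 sets of genes differ was not tested.

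Of 7 other uptake genes 28.6% were called and of 13 activation genes 30.8%, near the 27.6% of all genes, in both directions. Vldlr, a receptor for triglyceride-rich lipoproteins, was higher in KO (0.97 on the log2 scale, adjusted p = 0.00586, limma), and Lmf1, which helps lipases fold, was lower (-0.55, adjusted p = 0.0356, limma). Gpihbp1, the anchor of Lpl on endothelium, had a log2 fold change of 0.33 (adjusted p = 0.151, limma), and Angptl4, an inhibitor of Lpl, one of -1.32 (adjusted p = 0.127, limma). Neither passed, but without WT 3 both did, at adjusted p of 0.0178 for Gpihbp1 and 0.00151 for Angptl4 (limma), and Angptl4 passed by DESeq2 as well. Acsl3 (1.005, adjusted p = 0.00344, limma) and Acsl4 (1.03, adjusted p = 0.00673, limma), which make acyl-CoA, were higher. Acot9, which cleaves it, was lower (-1.13, adjusted p = 0.00936, limma).

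Around Pdk4 in the pyruvate dehydrogenase list, Pdp1, the phosphatase that opposes the kinases, was higher in KO (0.63, adjusted p = 0.0185, limma). Pdk3 was lower (-2.06, adjusted p = 0.0110, limma), at 13.7 to 18.5 normalized counts in KO against 23.5 to 110 in WT. Pdk2 had a log2 fold change of 0.02 (adjusted p = 0.926, limma). Among the genes that set malonyl-CoA, the inhibitor of Cpt1b, Acacb was higher (0.57, adjusted p = 0.03, limma). The kinase subunits Prkab2 (1.06, adjusted p = 0.0232, limma) and Prkag3 (0.78, adjusted p = 0.0337, limma) were higher as well, and Prkag2 was lower (-1.53, adjusted p = 0.00520, limma). Of 14 nuclear regulators, Rxrg was higher (0.89, adjusted p = 0.0307, limma). Ppargc1b (-0.78, adjusted p = 0.0208, limma) and Nr4a3 (-1.75, adjusted p = 0.0223, limma) were lower. Ppara (-0.23) and Ppargc1a (0.02) did not pass. The calls of Prkab2 and Prkag3 were each lost in 7 of 17 alternatives, and those of Acacb and Rxrg in 8 each.

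Peroxisomal oxidation and fatty acid synthesis had the largest shares of calls. In the peroxisomal list 5 of 10 were higher in KO and 1 lower. Those higher included Abcd2 (1.62, adjusted p = 0.00960, limma), Ehhadh (1.17, adjusted p = 0.0276, limma), Crot (0.89, adjusted p = 0.0214, limma) and Abcd3, and Acaa1a was the lower 1. In synthesis and desaturation 5 of 11 were higher, among them Srebf1, the regulator of lipid synthesis (1.29, adjusted p = 0.00142, limma), and Scd2 (1.55, adjusted p = 0.00451, limma). Elovl1 was lower (-1.14, adjusted p = 0.0381, limma). Adipocyte markers had positive log2 fold changes in 8 of 8, with a median of 1.07, though 0 passed by limma. KO 3, with the highest adipocyte sum (17009), also had the highest Fasn (2713) and Scd1 (7493), neither called, and Acly (616.7), which was called. Of the others called higher, Mlxipl was highest in KO 3 among KO libraries, Scd2 in KO 1, Srebf1 in KO 4 and Elovl5 in KO 2. The part of adipocytes in these levels was not tested. Triglyceride storage and lipolysis had 0 of 12 called by limma, with 1 at an unadjusted p under 0.05, 1 called by DESeq2 and 0 by edgeR. Ucp2, a mitochondrial carrier, was lower (-1.90, adjusted p = 0.00732, limma). The 22 canonical genes that did not pass, which also include Acsl1, Slc25a20, Acads, Echs1, Etfa, Etfdh, Decr1, Pdha1, Mlycd, Pnpla2, Plin5, Ppard and Esrra, lay between -1.32 (Angptl4) and 0.46 (Ucp3).

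**Figure D5:**
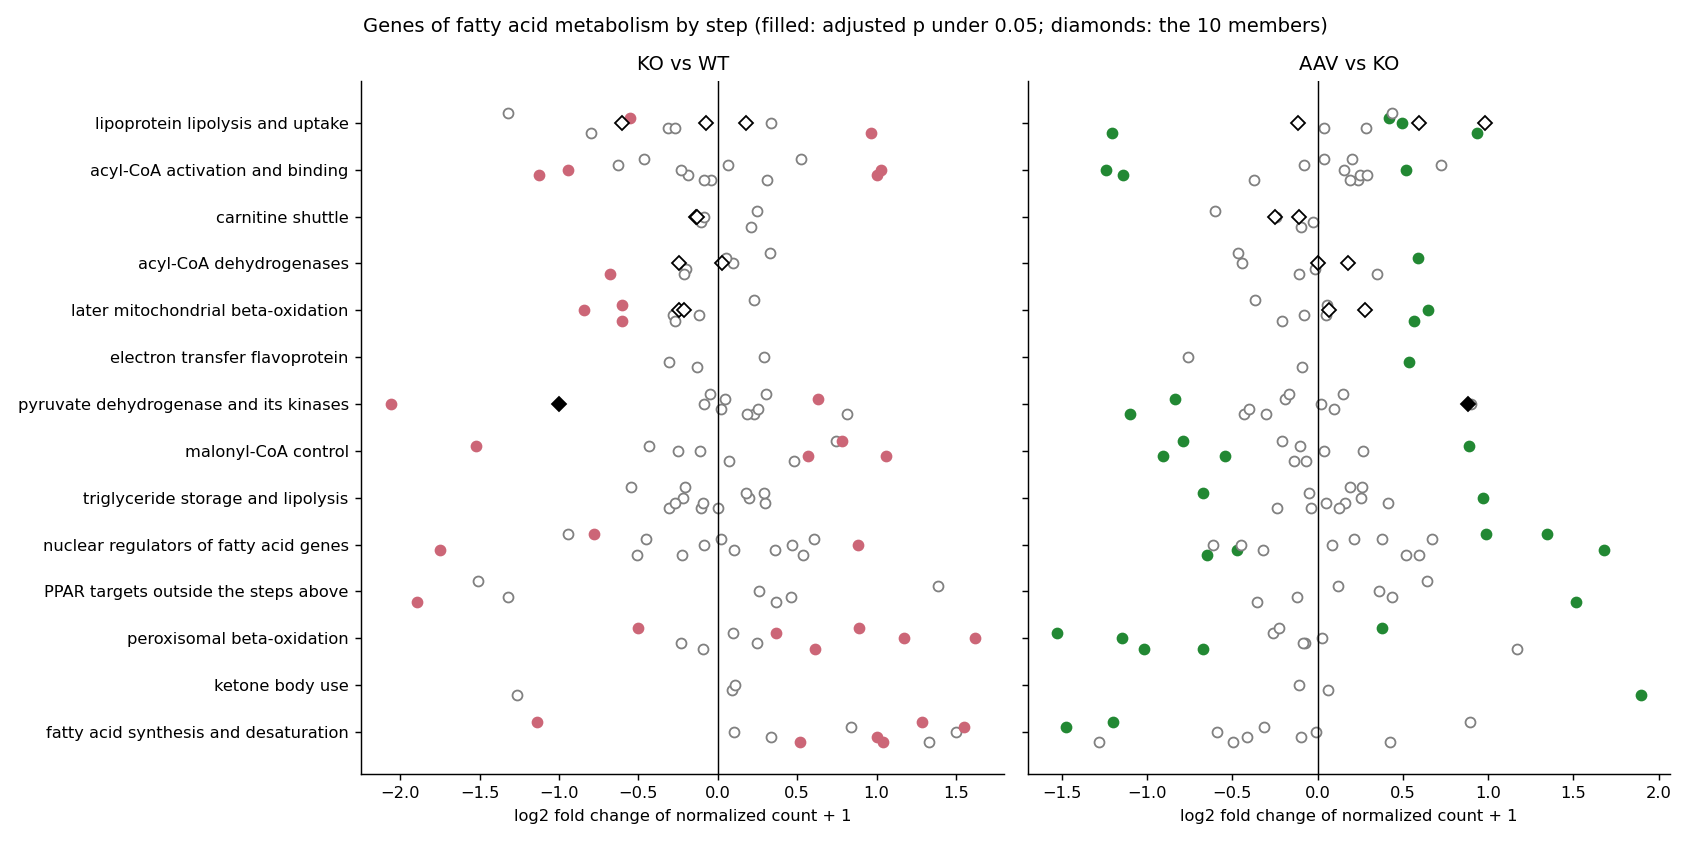
Log2 fold changes of the other genes of fatty acid metabolism by step (circles) and of the 10 members (diamonds), for KO against WT on the left and AAV against KO on the right, with filled symbols for an adjusted p under 0.05 (limma). Pdk4 is the filled diamond, at -0.997 and 0.88, and 3 of 7 circles of later mitochondrial beta-oxidation are filled below 0 on the left.

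For AAV against KO, 33 of the 118 other pathway genes were called (28.0%, where 26.3% of all genes were), 16 higher and 17 lower (12.8% and 13.4% of all genes), with a median log2 fold change of -0.02. The number was 18 without KO 1, 16 without KO 4 and 16 without AAV 1, and 21 with all 12 libraries in one fit. In the later steps of oxidation 2 of 7 were higher, Acaa2 (0.65, adjusted p = 0.0403, limma) and Hadh (0.56, adjusted p = 0.0212, limma). Etfb, an electron acceptor of the dehydrogenases, was higher too (0.54, adjusted p = 0.0163, limma). Acadl had a log2 fold change of 0.35 (adjusted p = 0.187, limma), and Acad10 of 0.59 (adjusted p = 0.0391, limma). The call of Acad10 was lost in 9 of 17 alternatives.

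Of the 7 other uptake genes 57.1% were called, where 26.3% of all genes were, 3 higher and 1 lower. Gpihbp1, the anchor of Lpl, was higher by 0.49 on the log2 scale (adjusted p = 0.0475, limma) and Slc27a1, a fatty acid transport protein, by 0.94 (adjusted p = 0.0454, limma), while Vldlr was lower (-1.21, adjusted p = 0.00115, limma). The calls of Gpihbp1 and Slc27a1 were each lost in 8 of 17 alternatives, with adjusted p of up to 0.117 and 0.0986. Angptl4 had a log2 fold change of 0.44 (adjusted p = 0.582, limma). Endothelial markers, of which Gpihbp1 is 1, were higher for 1 of 8 and lower for 1 of 8. Acsl4 (-1.24, adjusted p = 0.00106, limma) and Acsl3 (-1.14, adjusted p = 0.00497, limma) were lower, and Dbi, which binds acyl-CoA, was higher (0.52, adjusted p = 0.0451, limma). The call of Dbi was lost in 8 of 17 alternatives as well.

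Of the genes that govern pyruvate and malonyl-CoA, Pdp1 (-0.84, adjusted p = 0.00530, limma), Pdpr (-1.10, adjusted p = 0.00826, limma), Prkab2 (-0.90, adjusted p = 0.0201, limma), Prkaa2 (-0.79, adjusted p = 0.0149, limma) and Acacb (-0.54, adjusted p = 0.0283, limma) were lower. Prkag2 was higher (0.89, adjusted p = 0.00500, limma). Pdk2 (0.10) and Cpt1a (-0.09) did not pass. Among regulators Ppargc1b (0.99, adjusted p = 0.00500, limma), Nr4a3 (1.68, adjusted p = 0.0231, limma) and Esrrb (1.35, adjusted p = 0.04996, limma) were higher, and Ppara (0.52) and Ppargc1a (0.67) did not pass. The call of Esrrb was lost in 9 of 17 alternatives and that of Acacb in 8. Peroxisomal Abcd2 (-1.53, adjusted p = 0.0177, limma), Ehhadh (-1.15, adjusted p = 0.0268, limma) and Crot (-1.02, adjusted p = 0.0156, limma) were lower. Scd2 (-1.48, adjusted p = 0.00716, limma) and Srebf1 (-1.20, adjusted p = 0.0164, limma) were lower as well.

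In lipid storage and the use of ketone bodies, Mgll, which completes triglyceride breakdown, rose to 3126 to 4166 normalized counts in AAV from 1252 to 2120 in KO (0.97, adjusted p = 0.00637, limma). Abhd5, the activator of the first lipase, was lower (-0.67, adjusted p = 0.0127, limma). Bdh1, the first enzyme of ketone use, was higher (1.90, adjusted p = 0.0217, limma), and so was Ucp2 (1.52, adjusted p = 0.00978, limma). The 20 canonical genes that did not pass lay between -0.76 (Etfdh) and 0.67 (Ppargc1a), and these 2 passed in 5 and 4 of 17 alternatives. For AAV against WT, Mgll was the 1 of 118 called (0.75, adjusted p = 0.0483, limma), where 1.29% of all genes were, and it was lost in 11 of 18 alternatives.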

How the data were processed

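RNA-Seq of quadriceps from 12 mice was analysed, in 3 labelled groups of 4. Per the submitters' processing notes and the methods, the authors trimmed reads (Trim Galore 0.4.1, checked with FastQC 0.11.2), aligned them to mouse with STAR, discarded reads of more than 1 position, took gene counts from HTSeq 0.6.1 and divided each library by 1 DESeq2 (1.16.1) size factor. The deposited values are this normalized signal, not raw counts. The authors' deposited tables also hold the log2 fold change, a score (the test statistic) and p-values of their own comparisons, none of which was used. The mean over all libraries that the authors deposited, also on the scale of that signal, was not used either. Columns of other samples numbered 0, and the KO columns of both tables differed by 0, so that AAV and WT share a scale. Whole reads (tolerance 0.02) were recovered for 100.0% of values.

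As the values were not raw counts, the main test was limma with a trend on log2(value + 1), on genes that reached 10 in 1 or more of the 8 libraries in the comparison. P-values were adjusted by Benjamini-Hochberg over all of them, and called means an adjusted p under 0.05. The pseudocount understates the change of low genes. Intervals are 95% intervals of this fit. DESeq2 and edgeR on the recovered reads were alternatives, as were other scalings (total reads, TMM), no filter, a mean of at least 50, a pseudocount of 0.1, all 12 libraries in one fit, the replicate number as a block, libraries left out in turn, and WT 2 and AAV 4 left out together. The scripts recovered the changed genes of simulated counts.

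The 10 genes, the pathway lists by step and the marker lists were chosen with earlier results of these data known. Named pathway genes were 27 canonical genes, and in each list and comparison up to 3 called genes with the largest change among those with a mean of at least 50. Genes of like pattern were the 5 with the highest Pearson correlation, over 12 libraries, with the mean of the standardised members. Not every gene this rule picks is reported here. Abcd3, Acaa1a, Fasn, Scd1, Acly, Mlxipl, Elovl5, Pdk3 values per library and the marker genes were named after their values were seen. The labels carry a number for each WT and AAV library but only a letter for each KO library. Each library was taken as 1 separate animal, which the labels do not show for KO. Depth was 22122233 to 47379737 reads. Coordinates and overlaps are those of GENCODE M21 on GRCm38, which held 15186 of the 15344 identifiers, and promoters those of RefSeq on GRCm38.p6. Software was R 4.3.3, limma 3.58.1, edgeR 4.0.16, DESeq2 1.42.0, Python 3.11.15, numpy 2.4.6, pandas 2.3.3, matplotlib 3.10.9 and BLAST 2.17.0.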

Additional observations from a re-analysis of the deposited data

Results flagged for a closer look

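Among 33 groups of 4 libraries (the 10 genes and Gaa in each labelled group), 4 had a library far from the other 3 by Dixon's test at the 95% level, where chance alone gives about 1 in 20. Acadm stood at 9948.1 normalized counts in the library labelled WT 3, against 4948.5 to 5704.3 in the other WT libraries. Pdk4 stood at 27432.0 in the library labelled AAV 2, against 12406.8 to 14719.0 in the other AAV libraries. Gaa stood at 14640.2 in the library labelled WT 2, against 323.8 to 460.3 in the other WT libraries, and at 9854.3 in the library labelled AAV 4, against 499.6 to 946.8 in the other AAV libraries. The library with the high Acadm stood apart over all genes, and that with the high Pdk4 was the one with the highest slow fibre markers. The causes were not tested.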

How the results depend on the processing

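The count of members called, Pdk4 in both cases, was 1 for KO against WT and 1 for AAV against KO in the reported fits, and it did not change with the test, scaling, filter or pseudocount. Over libraries left out in turn it ran from 0 to 2 for KO against WT and from 0 to 1 for AAV against KO (Lpl in place of Pdk4 without AAV 4), and with all 12 libraries in one fit it was 0 for AAV against KO. The other pathway genes called ran from 17 to 59 and from 16 to 37 over the same omissions, and were 21 for AAV against KO with all 12 libraries in one fit. Genes called over the whole table ran from 2353 to 7163 and from 1961 to 5071. For AAV against WT, other pathway genes called numbered 6 by DESeq2, 3 after scaling to total reads, 4 with all 12 libraries in one fit, 0 by edgeR, with no filter, with the replicate block or without WT 2 and AAV 4, and 0 to 3 over libraries left out. Over all genes there were 951 by DESeq2, 318 after scaling to total reads, 901 with all 12 libraries, 10 without WT 2 and AAV 4, and 18 to 442 over libraries left out. Scaling to total reads moved the median log2 fold change of all genes to 0.21 for AAV against KO and 0.12 for AAV against WT. The naming rule picked 26 called pathway genes for KO against WT and 28 for AAV against KO. Of these, 14 and 11 kept the call in every alternative, and 0 changed direction. The calls lost most often were those of Lmf1, Rxrg, Ehhadh and Acacb (8 of 17 alternatives each) and Elovl1 (9) for KO against WT, and of Slc27a1, Gpihbp1, Dbi and Acacb (8 each), Acad10 and Esrrb (9 each) for AAV against KO.

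Some differences changed sign, and 0 of those were called in the reported fits. For KO against WT, DESeq2 and edgeR gave log2 fold changes of -0.035 and -0.026 for Cd36, -0.026 and -0.019 for Acadm, and -0.14 and -0.13 for Ppargc1a. Over libraries left out in turn, values ran from -0.091 to 0.59 for Cd36, -0.40 to 0.39 for Lpl, -0.29 to 0.0049 for Cpt1b, -0.083 to 0.25 for Acadm, -0.058 to 0.089 for Pdk2, -0.44 to 0.16 for Ppara and -0.20 to 0.38 for Ppargc1a. For AAV against KO, scaling to total reads gave 0.053 for Cd36, 0.054 for Cpt2, 0.071 for Cpt1a and 0.043 for Ucp3. Libraries left out gave -0.43 to 0.13 for Cd36, -0.15 to 0.19 for Acadm, -0.072 to 0.14 for Hadha, -0.20 to 0.052 for Cpt1a and -0.17 to 0.87 for Angptl4. For AAV against WT, DESeq2 and edgeR gave -0.041 and -0.027 for Cd36, 0.031 and 0.052 for Fabp3, and -0.39 and -0.34 for Gaa. Scaling to total reads gave 0.14 for Fabp3, 0.085 for Acadvl and 0.036 for Pdk4, and TMM gave 0.0015 for Fabp3. Without WT 2 and AAV 4 the values were 0.023 for Fabp3, 0.059 for Acadvl and -0.068 for Hadhb. Libraries left out gave -0.25 to 0.47 for Cd36, -0.18 to 0.15 for Fabp3, -0.13 to 0.26 for Acadm, -0.19 to 0.019 for Acadvl, -0.051 to 0.16 for Hadhb, -0.38 to 0.087 for Pdk4 and -0.51 to 1.79 for Gaa. The causes were not tested.

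Same-numbered libraries did not match throughout. Their deviations correlated at -0.12 to 0.04 between KO and WT, -0.20 to 0.07 between AAV and KO and -0.42 to 0.61 between AAV and WT. Between AAV and WT, libraries numbered 3 and 4 had 0.61 and 0.53, and those numbered 1 and 2 had -0.07 and -0.42. With the replicate block, 1 member and 25 other pathway genes were called for KO against WT and 1 and 29 for AAV against KO, and the count over all genes was 3062, 2179 and, for AAV against WT, 132.

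With 4 animals a group and 95% intervals that span more than 1 on the log2 scale for Lpl and Cd36, differences of the size seen for Fabp3 could not be resolved in those genes. The lowest value of any member was 75.8 normalized counts, for Cpt1b. The directions given are those of the labels.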
